A study of Homo sapiens with 8 samples.

Results

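The RNAs described here are the RNA subunits of 3 ribonucleoprotein classes made by RNA polymerase III, together with the RNA of telomerase. They are RMRP, RPPH1, RN7SL1, RN7SL2 and the vault RNAs VTRNA1-1, VTRNA1-2 and VTRNA1-3, with TERC as a polymerase II transcript for comparison. They were chosen by gene name, and all 8 were found among the 60106 genes of the files. They were measured in pneumospheres, which are floating spheres of non-small cell lung cancer cells grown without attachment in serum-free medium with fibroblast and epithelial growth factors and B-27. In 4 libraries the spheres had been given PD-L1s, which is a synthetic PD-L1 without a membrane anchor. The dose was 25 µg/ml, left on for 15 min with 0% FBS; PD-L1 is a ligand that restrains T cells. The other 4 libraries came from untreated spheres. Both groups hold 1 library of each of 4 established lines, H23, EBC1, H820 and H1975. The labels give EBC1 as squamous cell carcinoma and the other 3 lines as adenocarcinoma. Levels are given in CPM, counts scaled to library totals adjusted by TMM (edgeR's scaling method), unless counts are named.

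RNA polymerase III makes short structured RNAs that work in large numbers in every cell. RPPH1 is the catalytic RNA of nuclear RNase P, which removes the leader of precursor transfer RNAs, and RMRP is the RNA of the related enzyme RNase MRP, which cuts precursor ribosomal RNA. RN7SL1 and RN7SL2 encode 7SL RNA, the scaffold of the signal recognition particle, which brings ribosomes making secreted and membrane proteins to the endoplasmic reticulum. Vault RNAs bind vaults, hollow cytoplasmic particles built of the major vault protein, and TERC carries the template from which telomerase copies telomeric repeats.

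The vault RNAs are shown because their levels differed between lines in different ways. The sequences here are those of GENCODE release 29 on GRCh38, matched by symbol, read 5′ to 3′. The vault RNA genes lie on the plus strand, VTRNA1-1 at chr5:140711275-140711373, VTRNA1-2 at chr5:140718925-140719013 and VTRNA1-3 at chr5:140726158-140726246 (GRCh38). Capitals mark the match to GTTCGANNC, the core of the B box, an element inside the gene that recruits polymerase III.
VTRNA1-1: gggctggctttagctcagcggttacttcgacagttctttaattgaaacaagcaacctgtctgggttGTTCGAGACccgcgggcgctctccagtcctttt
VTRNA1-2: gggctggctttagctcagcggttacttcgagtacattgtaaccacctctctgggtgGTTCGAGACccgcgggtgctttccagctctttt
VTRNA1-3: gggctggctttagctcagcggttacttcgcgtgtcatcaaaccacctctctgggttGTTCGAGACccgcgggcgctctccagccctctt
All 3 held the same 9 letters, GTTCGAGAC, once on the forward strand, and none held a match on the reverse strand. Among 3717 transcripts of 80 to 110 bases in the same release, 9 (0.242%) held a match on either strand, these 3 vault RNAs included. The vault RNAs were 81.8% to 87.8% identical, and no stretch of 50 bases was shared between any pair.

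The related RNAs of RNase MRP and RNase P are given because their levels parted between lines. RMRP lies at chr9:35657751-35658018 and RPPH1 at chr14:20343075-20343407, both on the minus strand (GRCh38), and the first 300 bases of RPPH1 are shown.
RMRP: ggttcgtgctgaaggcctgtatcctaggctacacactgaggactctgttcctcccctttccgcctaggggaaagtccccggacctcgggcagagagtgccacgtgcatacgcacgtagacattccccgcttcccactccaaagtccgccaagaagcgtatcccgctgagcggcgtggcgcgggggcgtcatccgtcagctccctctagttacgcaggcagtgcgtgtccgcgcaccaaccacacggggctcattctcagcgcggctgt
RPPH1: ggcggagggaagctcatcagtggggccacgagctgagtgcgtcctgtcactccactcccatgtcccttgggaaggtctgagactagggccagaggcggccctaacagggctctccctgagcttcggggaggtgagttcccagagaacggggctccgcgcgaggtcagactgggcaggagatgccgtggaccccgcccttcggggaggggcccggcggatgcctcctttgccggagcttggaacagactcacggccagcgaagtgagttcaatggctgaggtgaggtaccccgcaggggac
In the files, on GRCh37, RMRP is at chr9:35657748-35658015 (minus strand), RPPH1 at chr14:20811207-20811844 (minus) and TERC at chr3:169482308-169482848 (minus). RN7SL1 is at chr14:50053297-50053596 (plus) and RN7SL2 at chr14:50329271-50329567 (minus). VTRNA1-1, VTRNA1-2 and VTRNA1-3 are at chr5:140090860-140090958, chr5:140098510-140098598 and chr5:140105743-140105831 (plus). The files annotate them as whole noncoding genes, with 638 bases for RPPH1, against 333 in the GENCODE release 29 transcript. RPPH1 overlaps an exon of PARP2 and RN7SL1 lies within the RPS29 locus, each on the opposite strand, which was counted apart.

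Total counts ran from 5559870 to 27524854 per library, and the 8 RNAs together took 1.70% to 3.54% of them. Depth was uneven within 2 of the lines, since the PD-L1s library held 4.67 times the counts of the untreated one in EBC1 and 4.28 times in H820, against 0.766 times in H23 and 0.936 times in H1975. Libraries of 1 line deviated together from the group means (r of 0.89 to 0.96), and libraries of different lines did not (r of -0.43 to -0.15). Subtracting the group mean itself pushes r between different lines below 0, so the negative values are no separate result. The epithelial markers EPCAM and CDH1 were low in H23, at 11.5 and 1.66 CPM in the PD-L1s library and 11.6 and 2.01 CPM in the untreated library. TP63, a squamous marker, reached only 0.313 CPM with PD-L1s and 0.192 CPM without in EBC1, the line labelled squamous. In H1975, labelled adenocarcinoma, TP63 stood at 86.6 CPM with PD-L1s and 87.1 CPM untreated. KRT5 was at or under 0.0471 CPM in all 8 libraries. KRT6A reached 5.61 CPM in the H1975 library with PD-L1s and at most 0.338 CPM in any other. NKX2-1, an alveolar marker, was at 0.224 CPM with PD-L1s and 0 CPM untreated in EBC1. It stood at 75.1 and 78.4 CPM in the PD-L1s and untreated libraries of H1975, and 54.0 and 35.5 CPM in those of H820. In H23 it was at 5.68 CPM with PD-L1s and 5.45 CPM untreated. NAPSA, also alveolar, was higher than in EBC1 in H820 and H1975 and lower in H23. The 4 immune markers summed to 0.761 to 2.51 CPM in the PD-L1s libraries and 0.521 to 3.04 CPM in the untreated ones. In such bulk RNA, fewer cells of a kind and less RNA per cell cannot be told apart.

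The 4 longer polymerase III RNAs were abundant and the vault RNAs nearly absent. Per kilobase of annotated length, mean levels over the 8 libraries were 42842 CPM for RN7SL1, 31122 CPM for RN7SL2, 10441 CPM for RPPH1, 4593 CPM for RMRP and 190 CPM for TERC. With the 333-base transcript, RPPH1 stood at 20004 CPM per kilobase, and the order was the same. The vault RNAs, of 89 to 99 bases, had 1.62 (VTRNA1-1), 5.98 (VTRNA1-2) and 12.7 CPM per kilobase (VTRNA1-3). Other short RNA genes, taken singly, were low too, in plain CPM. Among 30 vault, Y, U6, U7, BC200 and spliceosomal RNA genes of 63 to 200 bases, the mean level had a median of 0.974 CPM. RNU2-2P, a U2 gene, was highest at 157.5 CPM. RNU12, the only gene of these classes annotated above 200 bases, was also low, at 6.97 CPM. Several of these genes are copies within a family, such as U1 and U6, so the level of a copy is not that of the whole family. Pairs with a mapping quality under 1 were not counted. The parts of RNA length and of multiply mapped pairs in these levels were not tested.

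**Figure D1:**
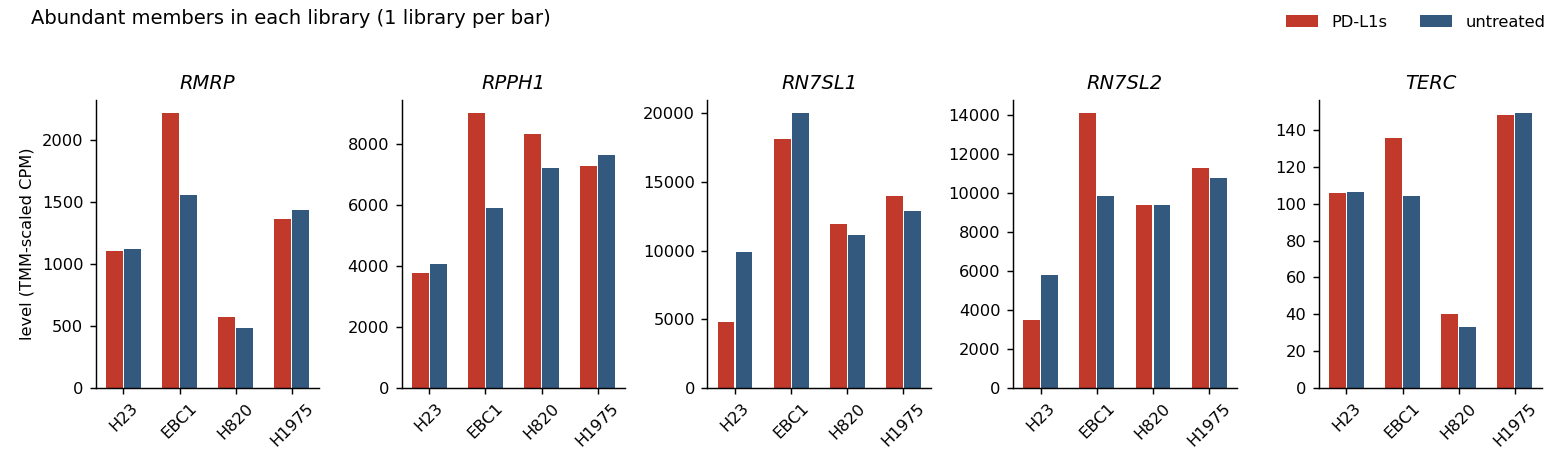
Level of each abundant RNA in every library, in TMM-scaled CPM on the y axis, with PD-L1s libraries in red left of untreated libraries in blue; each bar is 1 library and each panel has its own scale. RMRP and TERC were lowest in both H820 libraries, and RPPH1, RN7SL1 and RN7SL2 in both H23 libraries.

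In H820, the RNAs of RNase MRP and telomerase were low while that of RNase P was not. RMRP had 572 CPM in the PD-L1s library and 481 CPM in the untreated library of H820, against 1104 to 2215 CPM in the other 6 libraries. TERC had 39.9 CPM with PD-L1s and 32.8 CPM untreated in H820, against 104 to 149 CPM in the other 6. Both H820 libraries lay below all others for either RNA, a separation that was not counted over all genes. RMRP fell by 1.45 ± 0.18 on the log2 scale in H820 against the mean of the other 3 lines (SE, n = 2 libraries per line; adjusted p = 1.61e-06, edgeR quasi-likelihood test). TERC fell by 1.77 ± 0.14 (adjusted p = 6.89e-09). Lower calls were common in this contrast, at 22.9% of the genes tested. Both calls held under all 16 alternatives tried, with log2 values of -1.61 to -1.39 for RMRP and -1.90 to -1.69 for TERC.

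RPPH1 stood at 8348 CPM in the PD-L1s library and 7237 CPM in the untreated library of H820, within the range of EBC1 and H1975. Its log2 difference from the mean of the other lines was 0.37 ± 0.20 (SE), with an interval of -0.04 to 0.78 and an adjusted p of 0.122 (edgeR). It passed the threshold without the untreated H820 library (adjusted p = 0.0264) and with scaling by library size alone (0.00961). The CPM of RPPH1 was 14.6 times that of RMRP with PD-L1s and 15.0 times untreated in H820. The ratio was 3.41 and 3.65 in the PD-L1s and untreated libraries of H23, 4.07 and 3.80 in those of EBC1, and 5.35 and 5.31 in those of H1975. TERC kept closer to RMRP, with RMRP at 9.19 to 16.3 times TERC in all 8 libraries. As a description over the 8 libraries, log2 levels of RMRP correlated with those of TERC at r = 0.92 and with those of RPPH1 at r = 0.003. These libraries share 4 lines, so they are not 8 independent points.

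The RNAs of RNase P and the signal recognition particle were low in H23. RPPH1 had 3760 CPM with PD-L1s and 4080 CPM untreated in H23, against 5918 to 9013 CPM in the other 6 libraries. RN7SL2 had 3489 CPM with PD-L1s and 5772 CPM untreated, against 9364 to 14078 CPM elsewhere. RN7SL1 had 4818 CPM with PD-L1s and 9927 CPM untreated, against 11172 to 19994 CPM elsewhere. For these 3 RNAs the H23 libraries did not overlap the others, a separation that was not counted over all genes. Against the mean of the other lines, RPPH1 fell by 0.94 ± 0.21 (adjusted p = 8.22e-04), RN7SL1 by 1.004 ± 0.26 (adjusted p = 0.00232) and RN7SL2 by 1.22 ± 0.25 on the log2 scale (SE; adjusted p = 3.09e-04, edgeR). In this contrast 27.4% of the genes tested were called lower and 34.4% higher. The RN7SL1 call rested on the H23 library with PD-L1s, without which the log2 difference was -0.50 (adjusted p = 0.233). Without that library RPPH1 was at -0.74 and RN7SL2 at -0.77, still called (adjusted p = 0.0471 and 0.0457), and the test of any difference among lines was lost for RPPH1 (adjusted p = 0.164) and RN7SL2 (adjusted p = 0.0867).

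RMRP and TERC were not low in H23. RMRP had 1104 CPM with PD-L1s and 1117 CPM untreated there, and its log2 difference from the other lines was -0.00 ± 0.16 (SE). TERC had 106.1 CPM with PD-L1s and 106.5 CPM untreated, a log2 difference of 0.30 ± 0.12 (adjusted p = 0.0445, edgeR). That call was kept under 10 of 16 alternatives and was lost without the untreated H23 library (adjusted p = 0.546), the H23 library with PD-L1s (0.0928), the untreated EBC1 library (0.0558), the untreated H1975 library (0.0691), the H1975 library with PD-L1s (0.150) and with no filter on low counts (0.0958). Scaling by library size alone, which shifted the median gene of H23 by 0.43, gave RMRP 0.43 and TERC 0.73, and left RPPH1 at -0.51.

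**Figure D2:**
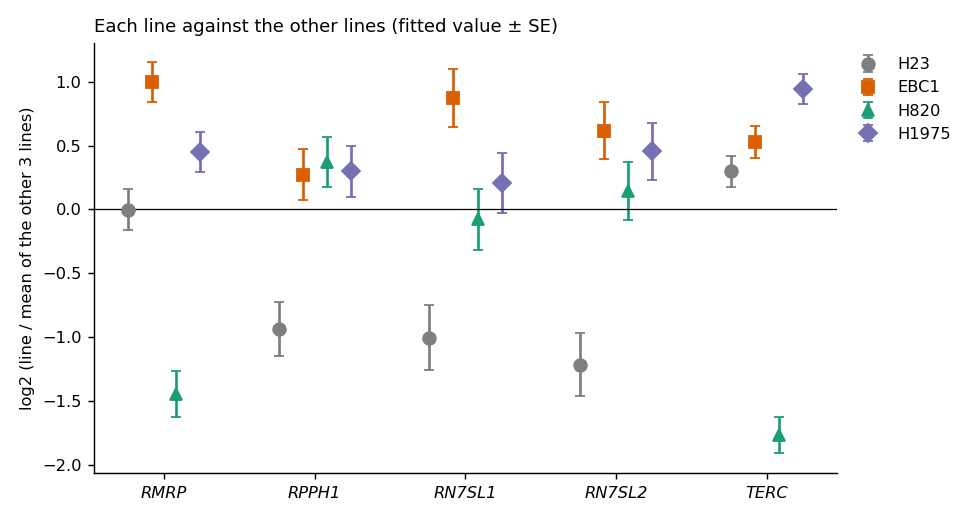
Fitted log2 difference of each line from the mean of the other 3 lines (y axis) for the 5 abundant RNAs, with bars of 1 SE; 2 libraries per line. H820 stands at -1.45 for RMRP and -1.77 for TERC, and H23 at -0.94 to -1.22 for RPPH1, RN7SL1 and RN7SL2.

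EBC1 held the highest levels of RMRP and RN7SL1. RMRP had 2215 CPM with PD-L1s and 1557 CPM untreated, and RN7SL1 had 18138 CPM with PD-L1s and 19994 CPM untreated. These libraries lay above all others for both RNAs, which was likewise not counted over all genes. RMRP rose by a log2 difference of 0.999 ± 0.15 over the other lines (SE; adjusted p = 2.35e-05, edgeR), and that call held under all 16 alternatives. RN7SL1 rose by 0.87 ± 0.23 (adjusted p = 0.00330), RN7SL2 by 0.62 ± 0.22 (adjusted p = 0.0244) and TERC by 0.53 ± 0.12 (adjusted p = 0.00145), where 28.1% of the genes tested were called higher. Without the EBC1 library with PD-L1s these 3 calls were lost, at log2 0.81 (adjusted p = 0.105), 0.23 (0.653) and 0.37 (0.103). The RN7SL2 call was also lost without the H23 library with PD-L1s (0.101), the untreated H1975 library (0.0877) or the H1975 library with PD-L1s (0.0723). With scaling by library size alone, the log2 differences of RN7SL2 and TERC were 0.30 and 0.21 and both calls were lost (adjusted p = 0.0511 and 0.0975). RPPH1 in EBC1 was not called, at 0.27 ± 0.20 (interval -0.14 to 0.69), but passed without the untreated H820 library (adjusted p = 0.0499) or the H820 library with PD-L1s (0.0392).

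H1975 held the highest TERC level, with 148.3 CPM with PD-L1s and 149.1 CPM untreated, a log2 difference of 0.94 ± 0.12 over the other lines (SE; adjusted p = 2.32e-06, edgeR). In this contrast 31% of the genes tested were called higher. RMRP in H1975, at 1363 CPM with PD-L1s and 1437 CPM untreated, rose by 0.45 ± 0.16 (adjusted p = 0.0233). The RMRP call was lost without either H1975 library (adjusted p = 0.0792 without PD-L1s, 0.511 without untreated), without the H23 library with PD-L1s (0.0601) and without the untreated EBC1 library (0.0813). RPPH1, RN7SL1 and RN7SL2 were not called in H1975, at 0.30 ± 0.20, 0.21 ± 0.24 and 0.45 ± 0.22. All 3 passed without the H820 library with PD-L1s (adjusted p = 0.0185, 0.0472 and 0.00191). Without the untreated H820 library RPPH1 (0.0342) and RN7SL2 (0.00199) passed. RN7SL2 also passed without the untreated H23 library (0.0151), without the EBC1 library with PD-L1s (0.04997), with library size alone (0.0128) and with no filter (0.0108).

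In order of level, RMRP ran EBC1, H1975, H23 and H820, and only the last step, H23 over H820, passed the test (log2 1.08 ± 0.20 SE, adjusted p = 1.52e-04, edgeR). TERC ran H1975, EBC1, H23 and H820, and again only the step of H23 over H820 passed (1.55 ± 0.16, adjusted p = 1.67e-07). For RPPH1 no pair among EBC1, H820 and H1975 differed by the test (adjusted p = 0.835 to 0.978), and H23 lay below each of them (adjusted p = 0.00225 to 0.00386). RN7SL2 ran EBC1, H1975, H820 and H23, and only the step of H23 under H820 passed (-1.02 ± 0.28, adjusted p = 0.00452). RN7SL1 ran in the same order with no neighbouring pair past the threshold, though H23 lay below EBC1 (-1.41 ± 0.30, adjusted p = 5.16e-04) and H1975 (-0.91 ± 0.30, adjusted p = 0.0125), and EBC1 above H820 (0.71 ± 0.29, adjusted p = 0.0468). Among all genes tested, 61.3% were called between H23 and EBC1, 58.9% between H23 and H820, 62.6% between H23 and H1975, 55.7% between EBC1 and H820, 52.7% between EBC1 and H1975 and 54.5% between H820 and H1975. All 5 abundant RNAs passed the test of any difference among the 4 lines, as did 86.3% of the genes tested.

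The vault RNAs showed a different line pattern at very low counts. VTRNA1-2 had 38 counts with PD-L1s and 11 untreated in EBC1 (1.70 and 2.11 CPM), against 0 to 3 counts in each of the other 6 libraries. Over both EBC1 libraries it stood at 29.6 times the level of the other 6 together, on 49 counts against 7, of which H23 held 5. The 95% interval of this ratio, for counting error only, was 13.3 to 77.5. VTRNA1-3 had the opposite pattern, with 0 counts in both EBC1 libraries, among 33419800, against 185 counts in the other 6. With 3 counts over both EBC1 libraries as the floor, VTRNA1-3 was at least 14.6-fold lower in EBC1 than in the other 6 pooled. The pooled level was 1.59 CPM, beside 0.892 CPM in H23, 1.09 CPM in H820 and 2.60 CPM in H1975. The bound is therefore smaller against H23 and H820 alone. VTRNA1-3 was highest in H1975, with 57 counts with PD-L1s and 58 untreated (2.68 and 2.53 CPM). H820 had 24 counts with PD-L1s and 6 untreated (1.11 and 1.01 CPM), and H23 had 11 with PD-L1s and 29 untreated (0.553 and 1.16 CPM). VTRNA1-1 had 14 counts in all, 0 to 4 per library, too few to order the lines. VTRNA2-1, a further vault-related RNA, had 4 counts with PD-L1s and 2 untreated in EBC1 and none in the other 6 libraries. VTRNA1-2 and VTRNA1-3 passed the filter on low counts only through the lines where they were present, and VTRNA1-1 did not pass it, so their differences between lines are described by their counts.

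**Figure D3:**
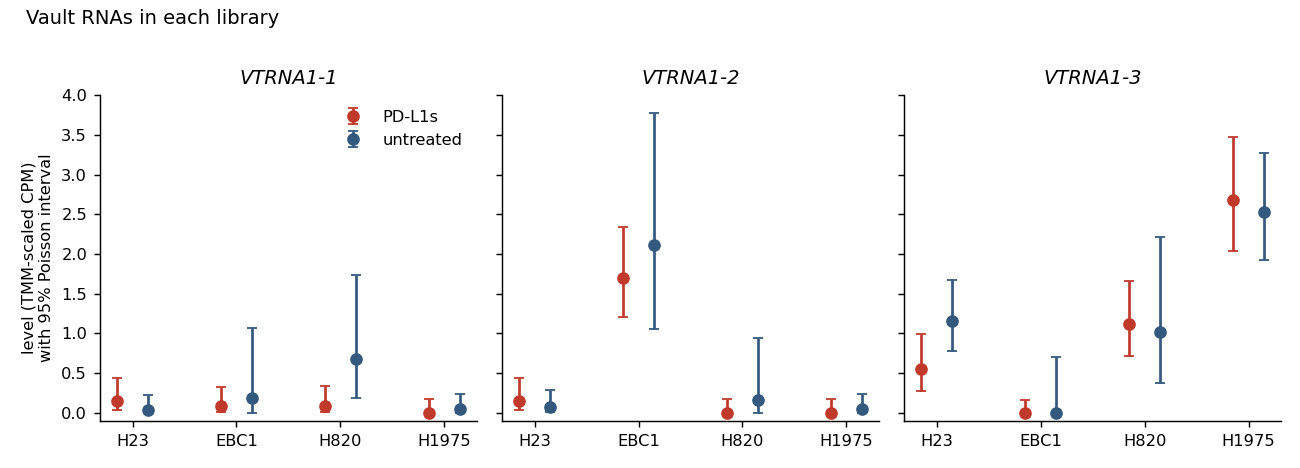
Level of each vault RNA in every library, in TMM-scaled CPM on the y axis, with exact 95% Poisson intervals; PD-L1s in red left of untreated in blue. VTRNA1-2 was highest in EBC1, at 1.70 and 2.11 CPM, where VTRNA1-3 had 0 counts.

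PD-L1s changed none of these RNAs by the test over the 4 lines. Of the 7 that could be tested, 0 were called, against 0.0372% of all 24185 genes (9 genes), and 0 had an unadjusted p under 0.05, against 874 of all genes (edgeR); DESeq2 also called 0 of them. RMRP averaged 1314 ± 685 CPM with PD-L1s and 1148 ± 482 CPM untreated (SD, n = 4 each), a paired log2 difference of 0.17 ± 0.14 (SE; interval -0.13 to 0.46). RPPH1 averaged 7104 ± 2339 CPM with PD-L1s and 6218 ± 1603 CPM untreated, a log2 difference of 0.16 ± 0.17 (interval -0.21 to 0.52). TERC, at 107.6 ± 48.5 CPM with PD-L1s and 98.2 ± 48.2 CPM untreated, differed by 0.15 ± 0.11 (interval -0.08 to 0.39), a value close to those of RMRP and RPPH1. RN7SL1 differed by -0.24 ± 0.21 (interval -0.68 to 0.20) and RN7SL2 by -0.03 ± 0.20 (interval -0.45 to 0.38). VTRNA1-2 and VTRNA1-3 were at -0.36 ± 0.67 and -0.24 ± 0.36, with intervals of -1.76 to 1.04 and -1.01 to 0.53. The VTRNA1-2 value rested mostly on the EBC1 pair, which held 49 of its 56 counts. EBC1 had 0 counts of VTRNA1-3 and so gave no information on it. Every adjusted p was 0.9996.

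Within lines, which have 1 library per condition and so no replicate check, RMRP, RPPH1 and TERC stood higher with PD-L1s in 2 of the 4 lines. They were higher in EBC1, at log2 ratios of 0.51, 0.61 and 0.38, and in H820, at 0.25, 0.21 and 0.28. In H23 they stood at -0.02, -0.12 and -0.01, and in H1975 at -0.08, -0.07 and -0.01. EBC1 and H820 are also the lines whose PD-L1s library was over 4 times as deep as the untreated one. In a fit of H23 and H1975 alone, the log2 differences were -0.04 for RMRP, -0.09 for RPPH1 and -0.00 for TERC. After all libraries were thinned to the depth of the shallowest, the differences over the 4 lines were 0.14, 0.10 and 0.17, none of them called. The part of depth in these within-line ratios was not tested. The response of EBC1 less that of the adenocarcinoma lines was 0.46 ± 0.37 for RMRP, 0.60 ± 0.55 for RPPH1, 0.74 ± 0.63 for RN7SL2 and 0.30 ± 0.24 for TERC (SE), and the test of this difference called 0 of the 6 RNAs with counts in EBC1 that could be tested, against 0.0124% of all genes (edgeR; adjusted p = 1 for each; 1093 genes had an unadjusted p under 0.05).

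7SL RNA was lower with PD-L1s in the H23 pair, which has no replicate. RN7SL1 had 95919 counts with PD-L1s and 247516 untreated, which is 4818 and 9927 CPM and a log2 ratio of -1.04. RN7SL2 had 3489 CPM with PD-L1s and 5772 CPM untreated, a log2 ratio of -0.73. RN7SL3 stood at 583 CPM with PD-L1s and 859 CPM untreated. All annotated copies together were at 9049 CPM with PD-L1s and 16771 CPM untreated in H23, a log2 ratio of -0.89. In the other lines the sum of all copies differed by 0.12 (EBC1), 0.18 (H820) and 0.08 (H1975) on the log2 scale. Of the 15446 genes with enough counts in H23, 14 (0.0906%) were over 2-fold lower with PD-L1s, RN7SL1 among them; scaled by library size alone its log2 ratio was -0.98, short of 2-fold. 7SK RNA, another abundant polymerase III product, had 14711 CPM with PD-L1s and 18204 CPM untreated in H23. With H23 left out, the log2 difference over the remaining lines was -0.00 for RN7SL1 and 0.17 for RN7SL2.

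**Figure D4:**
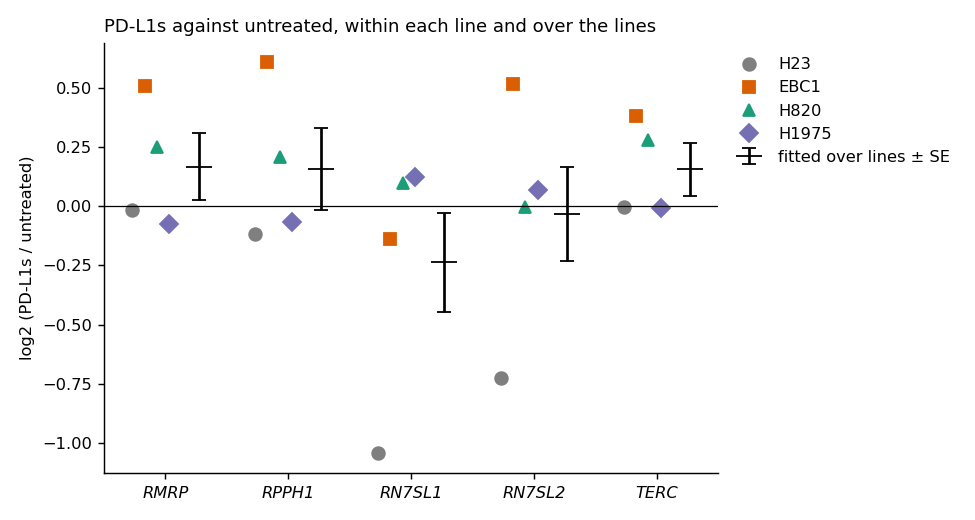
Log2 ratio of PD-L1s to untreated (y axis) for the 5 abundant RNAs, with a symbol per line and, in black, the value fitted over the 4 lines with bars of 1 SE. The H23 values of -1.04 for RN7SL1 and -0.73 for RN7SL2 stand below the other lines, and EBC1 is highest for RMRP, RPPH1, RN7SL2 and TERC.

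The files annotate 847 copies of 7SL, of which 606 had at least 1 count. RN7SL1, RN7SL2 and RN7SL3 took nearly all counts, and the other copies together 0.654% to 1.75%. The RN7SL1 share was 46.2% to 53.2% in the PD-L1s libraries and 47.0% to 59.2% in the untreated ones. RN7SL1 exceeded RN7SL2 in every library, by 1.24 to 1.38 times with PD-L1s and 1.19 to 2.03 times untreated, the last in EBC1. RN7SL3 took 16.6% of the 7SL counts with PD-L1s and 8.72% untreated in H820, or 4279 and 1984 CPM. Its share was 6.45% and 5.12% in the PD-L1s and untreated libraries of H23, 16.4% and 15.6% in those of EBC1, and 11.8% and 12.9% in those of H1975. Over the 4 lines, 0 of the 141 copies tested were called for PD-L1s, and RN7SL3 differed by 0.17 ± 0.21 on the log2 scale (SE; adjusted p = 0.9996, edgeR). RN7SL3 was lower in H23 (-2.45 ± 0.28, adjusted p = 3.97e-07) and higher in EBC1 (1.59 ± 0.22, adjusted p = 5.92e-06). Likeness among the copies was not measured here. A multiply mapped pair counted by its primary alignment, and only if its mapping quality was 1 or more. The division of counts among copies is therefore uncertain, and the summed level may miss pairs below that quality. Counted as 1 feature, all copies fell by 1.21 ± 0.26 in H23 (adjusted p = 6.25e-04) and rose by 0.86 ± 0.23 in EBC1 (adjusted p = 0.00434), and for PD-L1s differed by -0.12 ± 0.21.

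**Figure D5:**
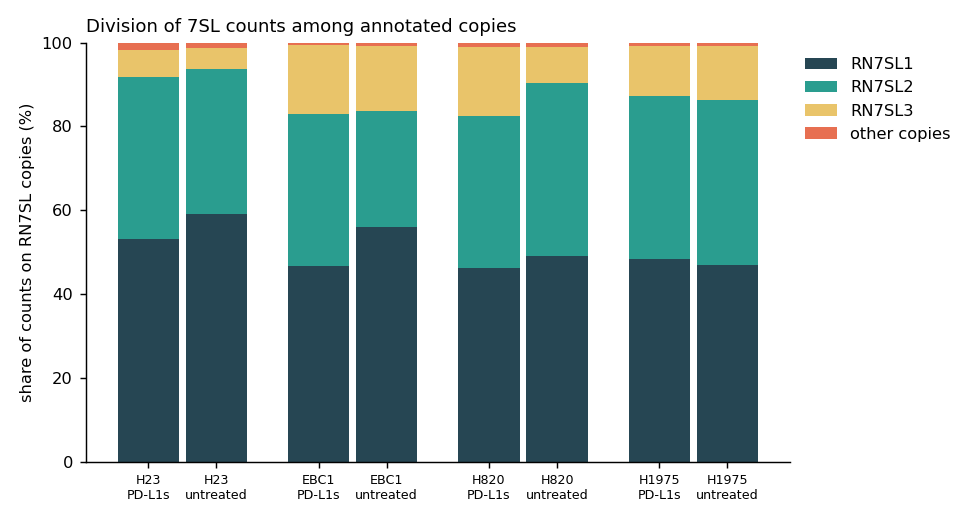
Share of all counts on annotated 7SL copies (y axis, percent) that fell on RN7SL1, RN7SL2, RN7SL3 and the other copies, with the PD-L1s library left of the untreated one in each line. RN7SL3 took 16.6% with PD-L1s and 8.72% untreated in H820.

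The proteins that join these RNAs were not called for PD-L1s either. Among the 11 protein subunits of RNase P and MRP, 0 were called and the median log2 difference was -0.06, beside 0.04 for all genes tested. POP4, a core subunit, was at -0.20 and RPP25L at 0.19. Among 8 proteins of the signal recognition particle and its receptor, 0 were called and the median was 0.12, with SRP19 at -0.17, SRP72 at 0.16, SRP68 at 0.14 and SRPRA, a receptor subunit, at 0.16. The 3 vault proteins had a median of 0.13, and TEP1, which also binds telomerase RNA, was at 0.30 (unadjusted p = 0.0244, adjusted p = 0.9996, edgeR). The 7 telomerase proteins had a median of 0.07, the 18 polymerase III subunits 0.05 and its 19 initiation factors and regulators 0.08. POLR3K, a small catalytic-core subunit, stood at -0.25 and GTF3C6, a subunit of the initiation factor TFIIIC, at 0.24. Of the 6 tested polymerase III RNAs outside the set the median was -0.15, and of the 14 tested polymerase II small nuclear RNAs -0.07, with RNU4-1, a U4 gene, at -0.48 (unadjusted p = 0.0206). None of these passed the threshold.

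Between lines, partner proteins differed in either direction, with and against their RNAs. In H820, 3 of 11 RNase P and MRP proteins fell and 0 rose (median -0.18, beside 0.04 for all genes), a share near the 22.9% of all genes called lower. They were POP1 (-1.06), POP4 (-0.45) and POP7 (-0.56), subunits held in common by both enzymes. RMRP was low in H820 and RPPH1 was not. In H23, where RPPH1 was low, 3 of the 11 rose and 2 fell (median 0.03). In H23 against the other lines, 34.4% of all genes were called higher and 27.4% lower. Of the 7 telomerase proteins 3 fell in H820 and 0 rose (median -0.34). They were TERT, the reverse transcriptase (-2.43, at 0.5 to 0.8 CPM), DKC1, the pseudouridine synthase that binds TERC (-0.87), and NHP2 (-0.52). TERT was also called lower in H1975 (-1.77, at 0.5 to 1.2 CPM), where TERC was high and 2 of the 7 rose and 3 fell (median -0.24). In H23 TERT stood at about 22 CPM in both libraries. In H23, where 7SL was low, 5 of 8 signal recognition particle proteins fell and 0 rose (median -0.52, beside 0.10 for all genes). Of all genes, 27.4% were called lower there. SRP54, the signal-binding subunit, was at -1.45, SRPRA at -1.13, SRPRB at -1.01, SRP19 at -0.58 and SRP68 at -0.46. The other 3 lay above 0 and were not called. In EBC1, where 7SL was high, 4 of the 8 rose and 1, SRP72 (-0.69), fell, with SRP54 at 1.35. In EBC1 5 RNase P and MRP proteins rose and 1 fell, and 10 of 18 polymerase III subunits rose and 2 fell. Of all genes, 28.1% were called higher in EBC1. MVP, the major vault protein, stood at 1.63 in H1975, 0.88 in EBC1, -1.15 in H23 and -1.37 in H820, an order that neither VTRNA1-2 nor VTRNA1-3 followed. These values are log2 differences of a line from the mean of the other 3, and the members named for H820, H23 and EBC1 were picked after their values were seen. The share of all genes called was high in each of these contrasts (61.8% for H23, 54.4% for EBC1, 53.5% for H820 and 53.6% for H1975).

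The genes whose log2 CPM most resembled each abundant RNA over the 8 libraries, among 15165 or 15166 genes, were protein-coding genes and pseudogenes. For RMRP they were MAZ (Pearson r = 0.995) and WDR90 (0.992), for TERC CEP85 (0.995) and FSCN1 (0.995), and for RPPH1 STIM1 (0.979) and MIDN (0.978). For RN7SL1 they were HLA-V (0.977) and AC127496.1 (0.976), and for RN7SL2 PANX2 (0.982) and PPIAL3 (0.980). MAZ, a zinc finger transcription factor, had 73.3 CPM with PD-L1s and 65.1 CPM untreated in H820, against 120.2 to 249.6 CPM in the other 6 libraries. FSCN1, an actin-bundling protein, had 86.9 CPM with PD-L1s and 54.0 CPM untreated in H820, against 247.2 to 458.2 CPM in the others. The 8 libraries come from 4 lines, and no test was made of these correlations.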

How the data were processed

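Total RNA was measured in 8 libraries, 2 from each of 4 lines. A Maxwell RSC extraction and a stranded kit that removes ribosomal RNA were used, per the labels' protocols. The submitters' processing notes name STAR 2.7.3a, featureCounts (Subread 2.0.0) and GRCh37. The authors deposited unnormalised counts per gene of GENCODE release 28 lifted to GRCh37. Per the file headers, a read pair counted in the reverse-stranded setting if its alignment was primary, both mates aligned and the mapping quality was 1 or more, and it counted for every gene it overlapped. The files also give gene length, another value that the authors deposited, used here only for levels per kilobase.

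edgeR 4.0.16 (R 4.3.3) was run on the counts with TMM scaling, line plus treatment as terms and a minimum count of 10 per gene, which left 24185 of 60106 genes. The quasi-likelihood F test was two-sided, with Benjamini-Hochberg adjustment over all genes tested and calls under 0.05. Intervals of fitted differences are 95% intervals. Line contrasts rest on 2 libraries per line, which nothing in the labels shows to be separate cultures, so these p-values may reflect technical spread alone. The pairing of libraries comes from the labelled line. Log2 ratios within a line used a prior count of 5, and a 2-fold change was described where 1 of its libraries had 50 counts or more. A count of 0 was given a floor of 3 counts. Poisson intervals and floors cover counting error only, whereas intervals of fitted differences include the spread between libraries that the fit estimated. Alternatives changed the scaling, the filter, the depth, the tool (DESeq2 1.42.0), the libraries and the treatment of 7SL copies. The code was tested on simulated data. The RNAs, gene lists and naming rule (up to 4 genes per list by unadjusted p, and the 2 most similar genes per abundant RNA) were chosen with earlier results of these data known. Of 95 listed symbols, 94 were matched; RNU2-1 was not analysed here. Some sequences are not reported here.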

Additional observations from a re-analysis of the deposited data

Results flagged for a closer look

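VTRNA1-2 was highest in EBC1 in both groups of 4 libraries. Its gap to the nearest other line, as a share of the whole range, was 0.911 among the PD-L1s libraries and 0.939 among the untreated ones, above Dixon's 95% critical value for 4 samples. The levels were 1.70 CPM with PD-L1s and 2.11 CPM untreated in EBC1, and at most 0.151 CPM with PD-L1s and 0.169 CPM untreated in the other lines. They rest on 38 counts with PD-L1s and 11 untreated. Of 21 groups checked 2 exceeded the critical value, and chance alone passes about 1 group in 20. Since VTRNA1-2 passed the filter on low counts only through EBC1, these values describe the gap and are no support for it.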

How the results depend on the processing

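For PD-L1s, 0 of the RNAs were called under every alternative run, while the number of genes called, 9 as reported, was 15 with scaling by library size alone, 3 with a minimum count of 50, 98 with no filter, 0 with no replicate block, 28 with H23 and H1975 only, and 5 to 20 with each line left out. The replicate block, the line term that pairs libraries, is part of the reported fit. For the response of EBC1 against the adenocarcinoma lines, 3 genes were called as reported, 6 with library size alone and 16 with no filter. In EBC1 against the other lines, 13167 genes and 6 of the RNAs were called, among them VTRNA1-2 and VTRNA1-3, which passed the filter only through the lines where they were present, so that 4 calls are reported. Leaving out each library in turn gave 3 to 7 RNAs and 8692 to 14283 genes, the lowest of both without the EBC1 library with PD-L1s. In H1975, 3 of the RNAs were called, VTRNA1-3 among them, and 2 to 7 with each library left out, with 5 without the untreated H820 library and 7 without the H820 library with PD-L1s. In that H1975 contrast, 53.6% of all genes tested were called as reported. RMRP in H23, at -0.00 as reported, was called at 0.43 with library size alone (adjusted p = 7.34e-04, edgeR). Some uncalled values also changed sign, such as RPPH1 in EBC1 (0.27 as reported, lowest -0.05) and, for PD-L1s, RPPH1 (0.16, lowest -0.09) and RN7SL2 (-0.03, highest 0.17). That scaling shifted the median gene by 0.43 in H23 and -0.32 in EBC1. The causes were not tested. The low RMRP and TERC in H820, the high RMRP in EBC1, the high TERC in H1975 and the low RPPH1 and RN7SL2 in H23 kept their direction and call under every alternative run. Counts limit the vault RNAs, at most 58 per library. Summing all 7SL copies was added after the data were seen.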
